A study of Mus musculus with 4 samples.

Results

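The mitochondrial ribosomal proteins were taken as every protein-coding gene with a symbol that starts with Mrpl or Mrps followed by a number, pseudogenes left out. The rule gave 78 genes, 49 Mrpl genes named for the large subunit and 29 Mrps genes named for the small subunit, of 27179 genes in the count data. Liver RNA of C57BL/6 wild-type mice, labelled male, was sequenced in 2 libraries titled fasted and 2 titled unfasted, called non-fasted here. Fasted mice had gone overnight without food and had free water, whereas non-fasted mice had food and water at all times. The labels call the mice age-matched without giving the age, and the protocol text names the substrain C57BL/6J. A separate treatment field lists fasting for all 4 libraries, so the groups follow the titles. No source ties a library to a mouse, and all p-values below measure only the spread between 2 libraries of a group, which may be technical.

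Mitochondria carry their own ribosome, the mitoribosome, which translates the few messenger RNAs of the mitochondrial genome into core subunits of the respiratory chain and ATP synthase. Its rRNAs are made inside the organelle, while all of its proteins are encoded in the nucleus, translated in the cytosol and imported. Some of these proteins descend from bacterial ribosomal proteins, and others were added in the mitochondrial lineage. Liver is rich in mitochondria, and hepatocytes oxidize fatty acids there during fasting.

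Counts summed to 13528015 to 13541405 in the fasted libraries and to 36943535 to 36975921 in the non-fasted libraries. The groups differed in more than food. A list of 17 trophoblast markers, genes of the placenta, summed to 6 counts in each fasted library and to 2540287 and 2558568 in non-fasted libraries 1 and 2, and 11 of the 17 had no count in the fasted libraries. Xist, transcribed from the inactive X chromosome of female cells, had 2 and 1 counts in fasted libraries versus 25772 and 26316 in non-fasted ones, against the male label. All 6 decidua markers were lower in the fasted libraries as well. The 14 hepatocyte markers took 13.4% of the counts in each fasted library and 5.60% and 5.56% in the non-fasted libraries, and all 14 were higher in fasted libraries, with log2 fold changes of 1.13 to 2.27. All 6 Kupffer cell markers were higher too, whereas 5 of 6 tested erythroid, 4 of 5 endothelial and 3 of 3 cholangiocyte markers were lower. Both non-fasted libraries carried the placental RNA, so no comparison could be made without it. Its part in the results below was not tested. In bulk RNA, fewer cells of a type and less RNA per cell cannot be told apart.

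All 78 genes had counts in every library and all passed the filter on low counts. With library scaling by median of ratios, 68 of the 78 (87.2%) were higher in the fasted libraries and 3 were lower, whereas with scaling to the hepatocyte markers 0 were higher and all 78 were lower. In the first scaling 37.2% of the 15470 tested genes were higher and 45.0% lower (edgeR's quasi-likelihood test, Benjamini-Hochberg adjusted p under 0.05). In the second, 4.74% of all tested genes were higher and 89.9% lower. The median log2 fold change, fasted over non-fasted, was 0.73 for the 78 genes and -0.13 for all tested genes with median of ratios. Scaling to the hepatocyte markers shifted log2 fold changes by -1.75 and put the median of the 78 genes at -1.03. Scaling to total counts shifted them by -0.50, and left 47 higher and 10 lower with a median of 0.22, where 23.0% of all tested genes were higher and 62.7% lower. The direction for the family as a whole therefore depended on the reference chosen, while the ratios among its members within a library did not. Normalized counts are given below with median-of-ratios scaling. In both fasted libraries 71 genes lay above both non-fasted libraries, 3 lay below and 4 overlapped, and 41.7% of all tested genes lay above in this way.

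**Figure D1:**
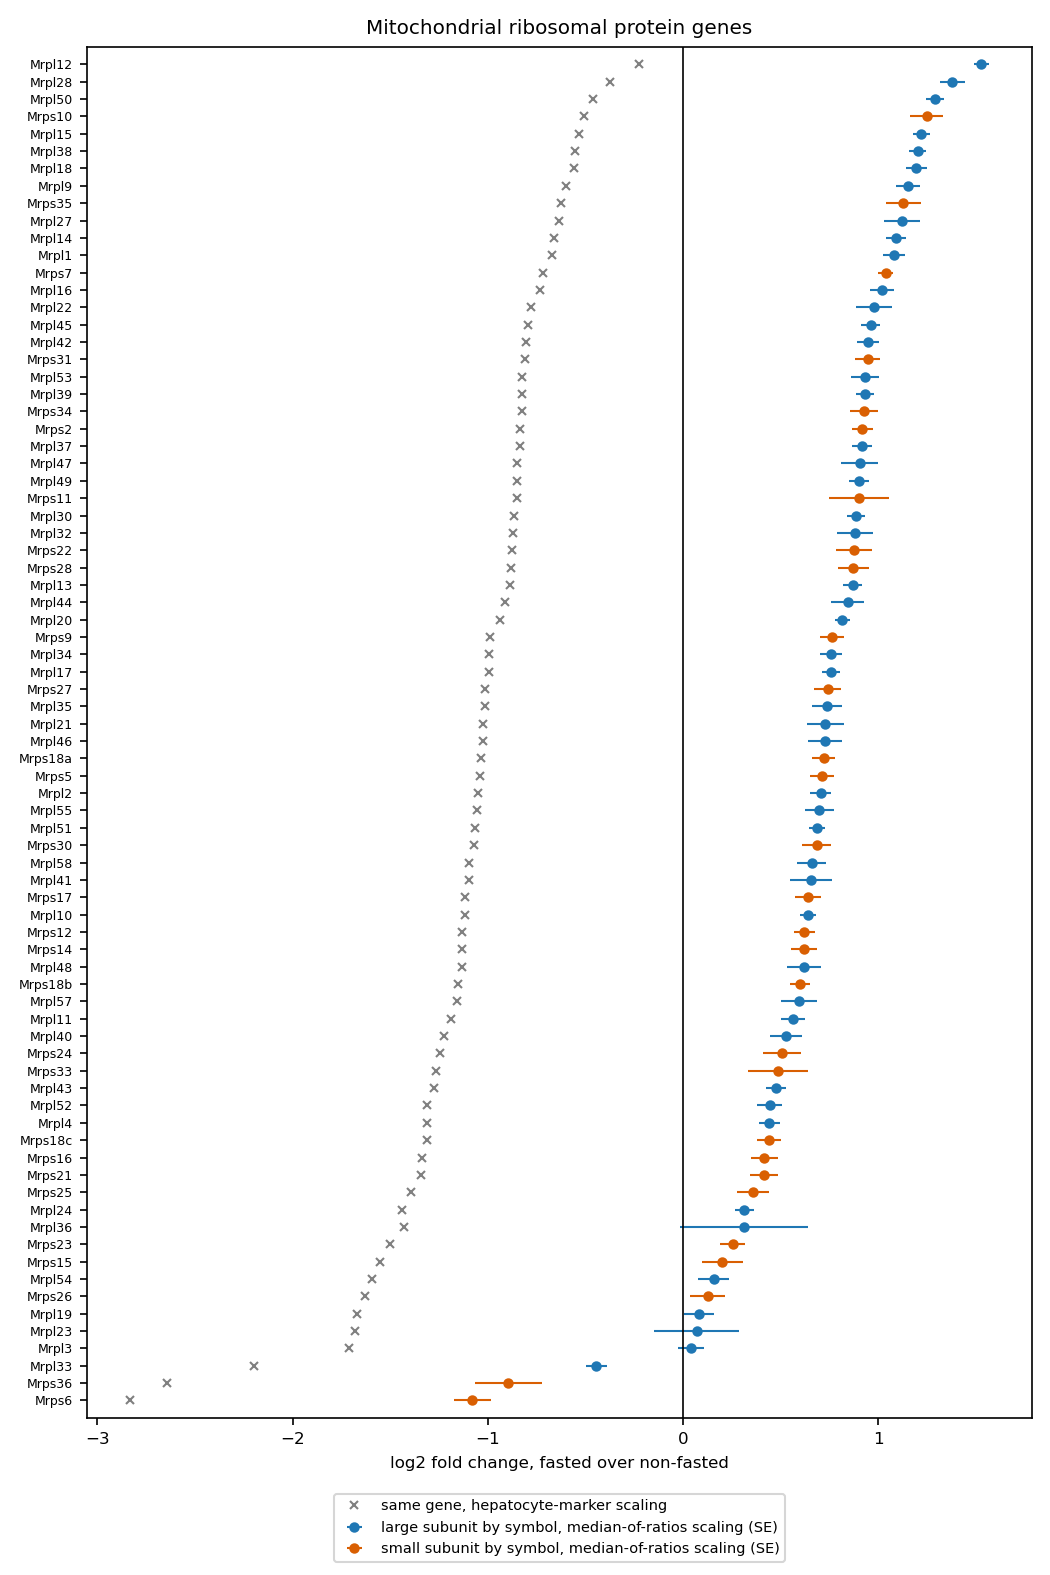
The 78 genes in order of their log2 fold change (fasted over non-fasted), with 2 libraries per group. Filled points give median-of-ratios scaling with the standard error, blue for Mrpl and orange for Mrps genes, and grey crosses give the same gene with hepatocyte-marker scaling, where all 78 lie below 0. Mrpl12 is at the top and Mrps6 at the bottom in both.

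The promoters of these genes were read from RefSeq for 69 of the 78 genes, as windows of 250 bases before to 50 bases after the start, in build GRCm38.p6. Mrpl4, Mrpl13, Mrpl15, Mrpl19, Mrpl38, Mrpl54, Mrps28, Mrps34 and Mrps35 were not matched. Nuclear genes for mitochondrial proteins are known for binding sites of GABP, an ETS factor, of NRF1 and of YY1. The letters CCGGAAG, an ETS core, were present on either strand in 26 of the 69 genes (37.7%) against 13.3% of 16784 protein-coding genes. GCGCATGC, the core of the NRF1 site, was present in 8 (11.6%) against 4.09%. AAGATGGC, a YY1 site, was present in 12 (17.4%) against 3.63%. TATAAA, the TATA box, was present in 5 (7.25%) against 14.6%, and CACGTG, the E-box, in 5 (7.25%) against 9.17%. Counted by window, CACGTG was in 9.33% against 8.02%, the other direction, while the other motifs kept theirs. Matches of different motifs were counted separately where they overlapped. The median log2 fold change was 0.62 in genes with CCGGAAG and 0.81 in those without, 0.82 and 0.71 for GCGCATGC, and 0.81 and 0.70 for AAGATGGC. Over all tested protein-coding genes with a window the medians were 0.04 and -0.15, -0.04 and -0.11, and 0.11 and -0.12. For CCGGAAG the order was thus the other way round. A match of letters is a description of the window and not a binding site.

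The windows of 6 genes, picked for their fold change or for their motif matches, are printed as the 100 bases before the start. They run 5′ to 3′ on the strand of the gene, with any of the 5 motifs that lies whole within them in capitals. Mrpl12 (chr11:120484537-120484636, plus strand) had the highest log2 fold change and Mrps6 (chr16:92058236-92058335, plus strand) the lowest. Mrpl33 (chr5:31613851-31613950, plus strand) was the other ribosomal member that fell, and it holds a further ETS core that runs across the start and is therefore not whole in the printed bases. Mrpl22 (chr11:58171564-58171663, plus strand) holds an ETS core and an NRF1 core, Mrpl32 (chr13:14613038-14613137, minus strand) repeated NRF1 cores, of which the first is read on both strands, and Mrpl43 (chr19:45006443-45006542, minus strand) a pair of ETS cores.
Mrpl12: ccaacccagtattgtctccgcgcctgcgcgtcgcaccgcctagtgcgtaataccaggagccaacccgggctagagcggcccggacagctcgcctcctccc
Mrps6: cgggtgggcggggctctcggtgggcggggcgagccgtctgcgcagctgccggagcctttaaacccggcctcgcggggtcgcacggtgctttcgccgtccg
Mrpl33: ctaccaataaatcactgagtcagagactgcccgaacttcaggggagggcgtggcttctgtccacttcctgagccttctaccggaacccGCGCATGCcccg
Mrpl22: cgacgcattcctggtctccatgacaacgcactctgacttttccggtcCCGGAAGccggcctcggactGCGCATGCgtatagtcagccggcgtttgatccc
Mrpl32: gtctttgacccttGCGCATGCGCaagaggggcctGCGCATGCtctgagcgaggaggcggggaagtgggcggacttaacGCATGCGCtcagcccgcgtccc
Mrpl43: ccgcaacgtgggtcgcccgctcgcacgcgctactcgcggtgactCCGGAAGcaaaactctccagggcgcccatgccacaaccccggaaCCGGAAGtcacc

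Mrpl12, which forms the flexible stalk of the large subunit and has been described as a partner of the mitochondrial RNA polymerase, stood at the top of the order. Its normalized counts were 2137 and 2209 in the fasted libraries and 738 and 769 in the non-fasted libraries. The groups were far apart and the libraries of each group lay close together. Its log2 fold change was 1.53 (SE 0.04, n = 2 libraries per group, edgeR's quasi-likelihood test, Benjamini-Hochberg adjusted p = 8.02e-10) and -0.23 with hepatocyte-marker scaling. Exons of Mrpl12 overlap those of Gm16755 on the opposite strand, so reads of this pair may be shared or lost. Mrpl28, a bacterial-type protein of the large subunit, had 970.4 and 875.5 against 365.7 and 344.6 normalized counts, a log2 fold change of 1.38 (SE 0.06). Mrpl50, which has no bacterial counterpart, had 1554 and 1453 against 621.2 and 608.9, a log2 fold change of 1.29 (SE 0.04). For both genes the groups did not overlap, and the log2 fold changes were -0.38 and -0.46 with hepatocyte-marker scaling. Mrpl15, Mrpl38, Mrpl18, Mrpl9 and Mrpl27 followed with log2 fold changes of 1.22, 1.20, 1.19, 1.15 and 1.12. Mrpl18 belongs to the central protuberance of the large subunit, and Mrpl27 lies near the site of peptide bond formation. Among all 78 genes 14 had a log2 fold change above 1, 11 of them Mrpl genes and 3 Mrps genes. Of the 78 genes, 8 exceeded the lowest of the 14 markers (1.13), and 0 exceeded the median of the markers (1.75).

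Among the small-subunit genes Mrps10, a protein of the head of that subunit, changed most in the upward direction. It had 589.3 and 512.7 normalized counts in fasted libraries versus 226.5 and 237.9 in non-fasted ones, a log2 fold change of 1.25 (SE 0.08, adjusted p = 8.11e-07 by edgeR's quasi-likelihood test with Benjamini-Hochberg adjustment) and of -0.51 with hepatocyte-marker scaling. Mrps35, a protein added in the mitochondrial lineage, had 430.2 and 487.1 against 200.6 and 219.1, a log2 fold change of 1.13 (SE 0.09). Mrps7, which binds the small-subunit rRNA, had 1407 and 1396 against 673.0 and 693.3, a log2 fold change of 1.04 (SE 0.04). The groups did not overlap for any of these genes. With Mrpl12, Mrpl20, Mrpl24 and Mrpl33, Mrps7 was among the 5 genes with the highest mean raw count over the 4 libraries, a mean to which the deeper non-fasted libraries contribute most. Mrpl20, a protein bound early to the large-subunit rRNA, had a log2 fold change of 0.81, and Mrpl24 one of 0.31, on the same scaling.

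Mrps6, Mrps36 and Mrpl33 lay below 0 under each scaling used. Mrps6, which binds the platform of the small subunit, had 85 and 106 counts in the fasted libraries against 783 and 781 in the far deeper non-fasted libraries, or 167.0 and 209.0 against 397.7 and 397.0 normalized counts. Both fasted libraries were well below both non-fasted libraries, and its log2 fold change was -1.08 (SE 0.10, adjusted p = 6.52e-06 by edgeR's quasi-likelihood test with Benjamini-Hochberg adjustment). The exons of Mrps6 overlap those of Slc5a3, a myo-inositol transporter gene, on the same strand, so reads of the pair may have been divided or dropped in counting. Slc5a3 had 78 and 75 counts in fasted libraries versus 618 and 644 in non-fasted ones, a log2 fold change of -1.09 (SE 0.10), and the values of both genes are uncertain for that reason. Mrps36, which despite its symbol is a subunit of the 2-oxoglutarate dehydrogenase complex of the citric acid cycle, had 55.0 and 59.2 against 108.7 and 103.7 normalized counts, a log2 fold change of -0.89 (SE 0.17, adjusted p = 0.0011). Mrpl33, a small bacterial-type protein of the large subunit, had 654.2 and 727.6 against 929.5 and 949.9 normalized counts, a log2 fold change of -0.44 (SE 0.05, adjusted p = 5.52e-05). Its exons overlap those of Gm43809 on the same strand, so its values, the ratios to it and its rank by level are uncertain in the same way. The groups did not overlap for these genes. Within a library, Mrpl12 had 12.8 and 10.6 counts for each Mrps6 count in fasted libraries versus 1.86 and 1.94 in non-fasted ones, and 3.27 and 3.04 for each Mrpl33 count against 0.794 and 0.810. These ratios need no scaling between libraries. Between Mrpl12 and Mrps6 the log2 fold changes spanned 2.61.

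A further 7 genes did not pass the test with median-of-ratios scaling. Mrpl3, a protein close to the catalytic centre, had 444.0 and 406.2 normalized counts in fasted libraries versus 406.8 and 419.8 in non-fasted ones (log2 fold change 0.04, SE 0.07). Mrpl23, which lines the end of the exit tunnel, had 22 and 23 counts against 80 and 86 (0.07, SE 0.22). For Mrpl36, with 10 and 7 counts against 27 and 26, the log2 fold change was 0.31 with an SE of 0.33, so a change of moderate size was not detectable at this depth. The log2 fold changes of Mrpl19, Mrps26, Mrpl54 and Mrps15 were 0.08, 0.13, 0.16 and 0.20. Mrpl3, Mrpl23, Mrps26 and Mrps15 overlapped between groups. Mrps23, a small-subunit protein without a bacterial counterpart, was the smallest rise that passed the test (0.25, SE 0.06), and it no longer passed when either fasted library was left out. Mrps15 passed without fasted library 1, as did Mrpl54 without non-fasted library 1. Such fits take the spread from the group that keeps both libraries and assume that the lone library varies alike.

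**Figure D2:**
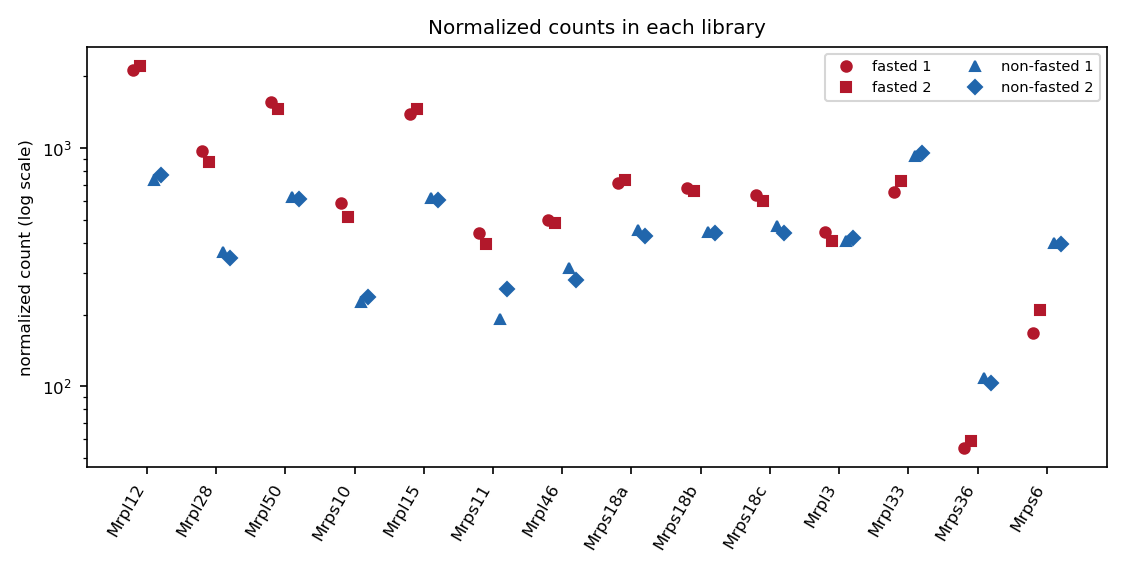
Normalized counts (median-of-ratios scaling, log axis) of 14 of the genes in each of the 4 libraries, red for fasted and blue for non-fasted, 1 point per library. Fasted points lie above non-fasted points from Mrpl12 to Mrps18c, mix for Mrpl3, and lie below for Mrpl33, Mrps36 and Mrps6, whereas with hepatocyte-marker scaling all of these genes were lower in the fasted libraries.

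The paralogs of bacterial S18 show how far the symbol can stand from the position. Mrps18c is the small-subunit protein of bacterial type, Mrps18b sits in the small subunit at another place, and Mrps18a sits in the large subunit. Their log2 fold changes with median-of-ratios scaling were 0.44 (SE 0.06), 0.60 (SE 0.05) and 0.72 (SE 0.06), and -1.31, -1.15 and -1.03 with hepatocyte-marker scaling. Exons of Mrps18c overlap those of Gm43511 on the same strand, and exons of Mrps18b those of Gm16279 on the opposite strand. Reads of these pairs may be shared or lost. Mrps30, also placed in the large subunit by structures, had a log2 fold change of 0.68 (SE 0.07). Mrpl58, a peptidyl-tRNA hydrolase built into the large subunit that can free stalled chains, had one of 0.66 (SE 0.07).

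Large-subunit genes took a greater share of the counts of the 78 genes in the fasted libraries. Mrpl genes held 70.7% (Wilson 95% interval 70.1 to 71.2%) and 70.3% (69.8 to 70.8%) of these counts in the fasted libraries, against 67.8% (67.5 to 68.2%) and 67.8% (67.4 to 68.1%) in the non-fasted libraries. The intervals cover counting error only, and they did not overlap between groups. The difference of the means was 2.69 percentage points, or 2.41 and 2.37 large-subunit counts per small-subunit count against 2.11 and 2.10. With 2 libraries against 2, an exact permutation test cannot give a two-sided p below 0.333, so none was run. Without Mrps6 the shares were 70.9% and 70.6% against 68.7% and 68.6%, and without Mrpl12 they were 69.4% and 69.0% against 67.1% and 67.0%, 2 variants added once the values were known. With Mrps18a and Mrps30 counted to the large subunit and Mrps36 left out, the shares were 72.9% and 72.6% against 70.4% and 70.2%.

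Counted gene by gene with median of ratios, 43 of 49 Mrpl genes were higher, 1 lower and 5 did not pass the test. Of 29 Mrps genes 25 were higher, 2 lower and 2 did not pass. Over all tested genes 37.2% were higher and 45.0% lower. With hepatocyte-marker scaling none of the Mrpl or Mrps genes was higher, where 4.74% of all tested genes were higher and 89.9% lower. With median of ratios the median log2 fold change was 0.76 (SD over genes 0.38) for Mrpl and 0.64 (SD 0.51) for Mrps genes. Their difference of 0.12 does not depend on scaling and was not tested. By structural position the medians were 0.76 for 51 large-subunit and 0.63 for 26 small-subunit genes. By the common names of ribosomal proteins, 46 genes had a name that marks a bacterial counterpart, with a median of 0.75. The other 32 had a median of 0.70. They include Mrps18a and Mrps18b, paralogs of bacterial S18 under names without that mark, and Mrps36. The 46 genes took 62.8% to 63.0% of the counts of the family in all 4 libraries.

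Levels were compared between genes as normalized counts per kilobase of exon. Lengths joined all exons of a gene in GENCODE M21 (GRCm38), whether used in liver or not, so ranks depend on them (Mrpl17 has 7605 bases). With median-of-ratios scaling the median level was 423 in the fasted and 255 in the non-fasted libraries. The range ran from 14.4 to 1651 and from 11.6 to 1966. With hepatocyte-marker scaling the median log2 fold change of the 78 genes was -1.03. Mrpl36 was lowest in both groups. In the fasted libraries Mrpl12 was highest (1651), followed by Mrpl20 (1545), Mrps21 (1518), Mrpl14 (1506) and Mrpl33 (1445). In the non-fasted libraries Mrpl33 was highest (1966), then Mrps21 (1141) and Mrpl52 (1042), and Mrpl12 reached 573. The first place thus passed from Mrpl33 to Mrpl12, the member with the third lowest fold change and the one with the highest.

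The family was also set against other gene groups within each library. All 78 genes took 0.203% and 0.201% of all counts in the fasted libraries and 0.169% and 0.170% in the non-fasted libraries. For 100 counts of nuclear genes of oxidative phosphorylation there were 17.6 and 17.4 counts of the family in the fasted libraries. In the non-fasted libraries there were 23.5 and 23.4. For 100 counts of cytosolic ribosomal proteins there were 57.9 and 57.6 against 37.4 and 37.4. For 100 counts of hepatocyte markers there were 1.513 and 1.498 against 3.02 and 3.05. The family was thus lower in the fasted libraries relative to the respiratory chain and hepatocyte markers, and higher relative to the cytosolic ribosome. None of these ratios rests on scaling, but all of them include the placental RNA of the non-fasted libraries.

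**Figure D3:**
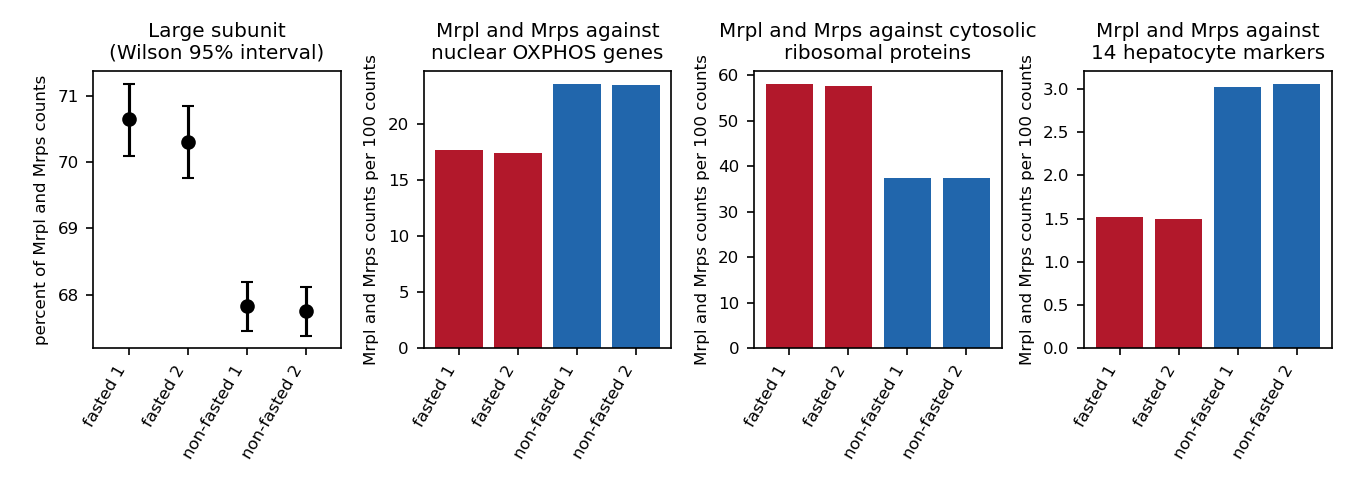
Within-library values in each of the 4 libraries. The left panel gives the percent of the counts of the 78 genes that fell on Mrpl genes, with Wilson 95% intervals and an axis that does not start at 0. The bars give counts of the 78 genes per 100 counts of nuclear oxidative phosphorylation (OXPHOS) genes, cytosolic ribosomal proteins and 14 hepatocyte markers, where the fasted libraries were lower, higher and lower.

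Some of these genes start close to a neighbour. For 26 of the 69 genes with a matched promoter window, another gene started within 1000 bases on the opposite strand, head to head. The distances ran from 8 bases (Mrps26) to 935 bases (Mrpl41). Starts were read from the same RefSeq promoter set, so the genes without a matched window were not assessed. The share over all genes was not computed. Mrpl46 and Mrps11, a large-subunit and a small-subunit gene, start 42 bases apart. The whole stretch between their starts (chr7:78783090-78783130, GRCm38.p6, plus strand, the direction of Mrps11) holds none of the 5 motifs.
Mrps11-Mrpl46: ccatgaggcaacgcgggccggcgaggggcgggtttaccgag

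Mrpl46 had 497.0 and 485.1 normalized counts in fasted libraries versus 314.4 and 279.0 in non-fasted ones, a log2 fold change of 0.73 (SE 0.08). Mrps11 had 442.0 and 394.4 against 192.0 and 256.2, a log2 fold change of 0.90 (SE 0.15), and its non-fasted libraries were further apart than those of Mrpl46. Without fasted library 1 Mrps11 no longer passed the test. Among the 25 neighbours, Mrps11 counted as one of them, 23 were tested, of which 16 were higher, 4 lower and 3 did not pass the test with median-of-ratios scaling. Over all 15470 tested genes 37.2% were higher and 45.0% lower in that scaling. Hepatocyte-marker scaling shifts log2 fold changes by -1.75, and the neighbours were not counted under it. Mrpl43 (log2 fold change 0.48) neighbours Twnk, the mitochondrial DNA helicase (1.03). Mrps12 (0.62) neighbours Sars2, the mitochondrial seryl-tRNA synthetase (0.77), and Mrpl47 (0.90) neighbours Ndufb5, a complex I subunit (1.46). In contrast Mrps7 (1.04) neighbours Gga3 (-0.40) and Mrpl51 (0.69) neighbours Ncapd2 (-1.05). Exons of Mrpl43 and Twnk, of Mrpl47 and Ndufb5, and of Mrps7 and Gga3 overlap on opposite strands, so reads of these pairs may be shared or lost. In all, exons of 26 of the 78 genes overlap those of another gene, 22 of them on the opposite strand. The strand setting of the counting is not given in the sources used here. Of the other 52 genes 47 were higher and 1 lower, with a median log2 fold change of 0.76 (a count added once the values were known). The 1 lower gene was Mrps36, and both ribosomal members that fell, Mrps6 and Mrpl33, overlap other genes. So do several that rose, among them Mrpl12, Mrpl18, Mrpl9 and Mrpl27 on the opposite strand and Mrps18c on the same strand.

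Other genes of mitochondrial translation were counted with median-of-ratios scaling, where 37.2% of all 15470 tested genes were higher and 45.0% lower. Of 5 mitoribosomal proteins with other symbols 4 were higher, with a list median of 0.81. Ptcd3 (1.05), Gadd45gip1 (0.82), Chchd1 (0.81) and Aurkaip1 (0.73) passed the test, while Dap3, a guanine nucleotide-binding protein of the small subunit, was at -0.04. Of 13 translation factors 10 were higher and 0 lower (median 0.91), led by the elongation factor Gfm1 (log2 fold change 1.22, SE 0.05), Taco1 (1.20), a translational activator of COX1, the initiation factor Mtif3 (1.12) and the release factor Mtrf1 (1.11). Of 27 assembly and rRNA modification factors 20 were higher and 2 lower (median 0.63), among them the rRNA methyltransferase Nsun4 (1.38), the GTPase Mtg1 (1.36), Mterf4 (1.17), the partner of Nsun4, the helicase Ddx28 (1.12) and the protease Clpp (1.02). Of 13 genes for insertion and turnover of the products 11 were higher and 0 lower (median 0.82), among them the prohibitins Phb2 (1.39) and Phb (1.09), Cox20 (1.02), Bcs1l (0.97) and the protease Lonp1 (0.88). With hepatocyte-marker scaling, where 89.9% of all tested genes were lower, each of these named genes was below 0.

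Of 22 mitochondrial aminoacyl-tRNA synthetases and related genes 16 were higher and 2 lower (median 0.70 with median-of-ratios scaling). Over all tested genes 37.2% were higher and 45.0% lower in this scaling. Lars2, the leucyl-tRNA synthetase, stood far apart with 26860 and 27358 counts in fasted libraries versus 10651 and 10769 in non-fasted ones, more counts in the shallower libraries. Its log2 fold change was 3.29 (SE 0.03) and 1.54 with hepatocyte-marker scaling, so its direction did not turn. Its mean normalized count in the fasted libraries was 53360, against 2022 for Iars2, the next most abundant of the list. Whether all of these reads came from Lars2 messenger RNA was not tested, and the multi-mapping setting is not given in the sources used here. Next by log2 fold change were Gatb (1.46), Nars2 (1.25) and Fars2 (1.10). Of 16 genes of mitochondrial transcription and RNA handling 13 were higher and 1 lower (median 0.83). They included Hsd17b10 (2.03), a subunit of the mitochondrial RNase P, its catalytic partner Prorp (1.20), the RNA-stabilizing Lrpprc (1.58) and Tfam (1.15), which packages and transcribes mitochondrial DNA. With hepatocyte-marker scaling Hsd17b10 stayed above 0 (0.28), and the other named genes of both lists, Lars2 aside, were below 0.

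The RNAs made in mitochondria had higher log2 fold changes than the ribosomal proteins, with medians of 1.84 and 0.73 with median of ratios and 0.09 and -1.03 with hepatocyte-marker scaling. All 10 tested genes of 15 were higher with median of ratios, against 37.2% of all tested genes. The other 5 had at most 4 counts in any library and were not tested. The large-subunit rRNA mt-Rnr2 had 25564 and 25773 counts in fasted libraries versus 15983 and 16102 in non-fasted ones, a log2 fold change of 2.63. The small-subunit rRNA mt-Rnr1 had 21509 and 21453 against 14122 and 14032, a log2 fold change of 2.56. Both rRNAs together had 171 and 174 counts per 100 counts of the 78 ribosomal protein genes in the fasted libraries, against 48.3 and 48.1 in the non-fasted libraries. How rRNA was removed or avoided in the libraries is not given in the sources used here. Of the messenger RNAs, ND3 was at 2.22, ND4 at 1.92 and COX1, the most abundant, at 1.37. With hepatocyte-marker scaling both rRNAs, ND3 and ND4 stayed above 0 and COX1 was below 0.

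The regulators of mitochondrial biogenesis were split. Of 11 listed, 4 were higher and 4 lower with median of ratios, and the list median was -0.03. Of all tested genes 37.2% were higher and 45.0% lower. Ppargc1a, the coactivator PGC-1α induced in fasted liver, had 89 and 100 counts in fasted libraries versus 68 and 93 in non-fasted ones, a log2 fold change of 2.18 (SE 0.18, adjusted p = 4.61e-06 by edgeR's quasi-likelihood test with Benjamini-Hochberg adjustment). Both fasted libraries were above the non-fasted ones once depth was taken into account, and the log2 fold change with hepatocyte-marker scaling was 0.43. Gabpa, the DNA-binding subunit of GABP, was at 0.74 (SE 0.04) and at -1.01 with hepatocyte-marker scaling, while Gabpb1 and Gabpb2, its partner subunits, were at -0.44 and -0.14. Esrra, a nuclear receptor that works with PGC-1α, was at 0.44, and Yy1 at 0.13, both of which were below 0 with hepatocyte-marker scaling or total counts. Pprc1, a growth-regulated relative of PGC-1α, was at -0.59 and Myc at -0.98, and both passed the test. Nrf1 (-0.21, SE 0.09), Ppargc1b (0.29, SE 0.26) and Hcfc1 (-0.03, SE 0.04) did not.

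For comparison, again with median-of-ratios scaling, 76 of 80 tested nuclear genes of oxidative phosphorylation were higher and 2 lower (median log2 fold change 1.11). Of 77 cytosolic ribosomal proteins 35 were higher, 12 lower and 30 did not pass the test (median 0.11). Over all tested genes 37.2% were higher and 45.0% lower. The median of the 78 mitochondrial ribosomal proteins, 0.73, lay between the medians of the oxidative phosphorylation and cytosolic ribosomal lists. Another scaling shifts all log2 fold changes about alike, so it cannot test this order.

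**Figure D4:**
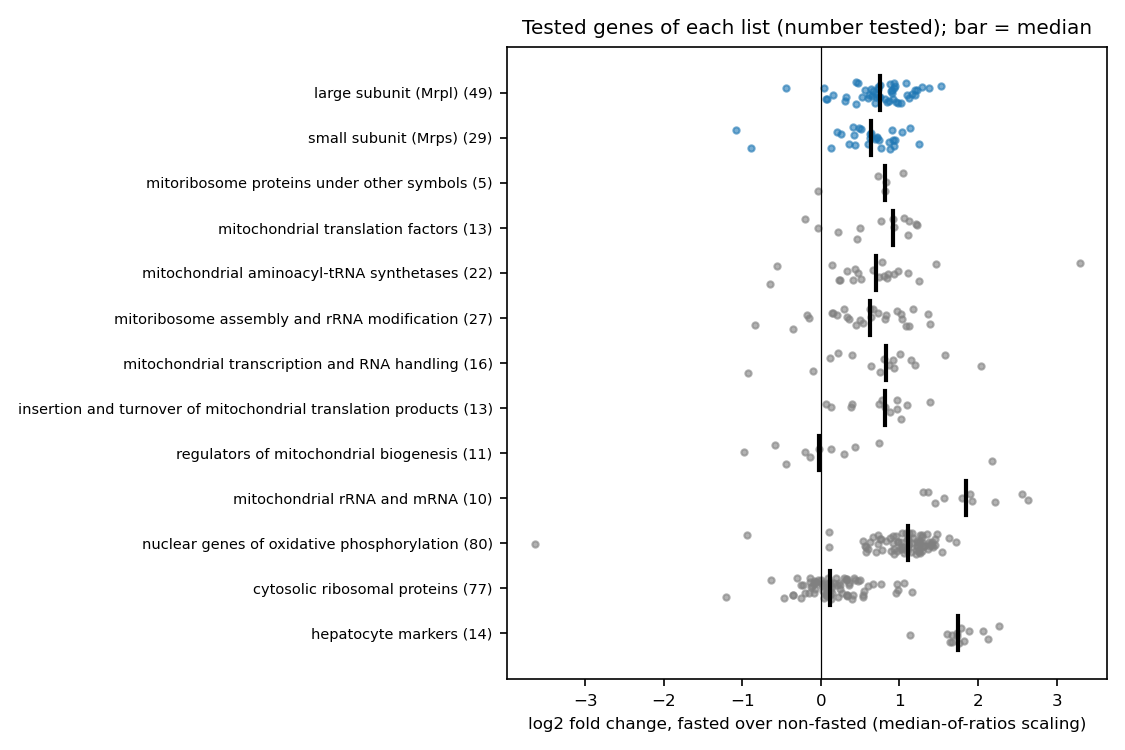
Each list's tested genes by log2 fold change (fasted over non-fasted) with median-of-ratios scaling, 1 point per gene and a bar at the median, with the number tested in parentheses. The Mrpl and Mrps genes (blue) center on 0.76 and 0.64, between cytosolic ribosomal proteins (0.11) and hepatocyte markers (1.75), and hepatocyte-marker scaling would shift all points to the left by about 1.75.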

How the data were processed

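Liver RNA was sequenced in 4 libraries, 2 fasted and 2 non-fasted, grouped by sample title. The authors deposited, for each library, raw counts of 27179 genes by Entrez identifier, without normalization. Build GRCm39 and the tools STAR, featureCounts, Trimmomatic, FastQC, MultiQC and DESeq2 1.32.0 are listed in the processing notes of the submitters. For strand and multi-mapping the settings were not given in the sources used here. Reads of overlapping genes may be lost or shared. Names, exon lengths, overlaps and promoters came from GENCODE M21 (GRCm38) and RefSeq (GRCm38.p6), an earlier build, and 1904 identifiers had no name. The 78 genes held 27207 to 62622 counts per library.

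The main analysis used edgeR 4.0.16 in R 4.3.3, with DESeq2 1.42.0 and limma 3.58.1 as alternatives: filterByExpr, median-of-ratios scaling, quasi-likelihood test (two-sided), Benjamini-Hochberg adjustment over 15470 genes at 0.05, with a common coefficient of biological variation of 0.00988. Each standard error is the absolute log2 fold change over the square root of F. Normalized counts are counts divided by size factors. Libraries of a group deviated from each other slightly more than counting noise (mean squared deviation 1.12 and 1.13 over all genes, 1.30 and 1.27 over the 78). Both were kept, but these values do not show whether the libraries of a group came from separate mice.

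Genes named were the 10 largest and 10 smallest log2 fold changes, the 5 highest mean counts, all lower or uncalled members, the Mrps18 paralogs, Mrps30, Mrps36, Mrpl12 and Mrpl58, up to 4 called members and the most abundant one of each other list, and all biogenesis regulators. Further genes, among them those with head-to-head neighbours and Mrpl22, Mrpl32, Mrpl43 and Dap3, were picked with their values in view. The members and lists were chosen with earlier results of these data known. Lists of oxidative phosphorylation and cytosolic ribosomal proteins follow symbol patterns. Alternatives were other scalings (TMM, upper quartile, total counts, hepatocyte markers), filters and tools, an exact deviance, a fixed coefficient of variation, a minimum fold, a replicate block, thinning and leaving out each library. Python 3.11.15 with matplotlib 3.10.9 made the figures.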

Additional observations from a re-analysis of the deposited data

How the results depend on the processing

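The choice of scaling decided the direction, and the placental RNA of the non-fasted libraries cannot be told apart from fasting in 2 libraries per group. With hepatocyte-marker scaling 0 of the 78 genes were higher and 78 lower, with a median log2 fold change of -1.03. Of all tested genes 4.74% were higher and 89.9% lower there. With total counts 10 of the 78 were lower, against 62.7% of all tested genes, and the median of the 78 was 0.22. With upper quartile scaling their median was 0.85. A minimum fold of 1.5 left 44 higher and 2 lower, where 3542 and 5036 of all 15470 genes were called. In addition, a filter at a mean of 10 CPM gave a median of 0.63, since the scaling then rested on fewer genes. With a fixed coefficient of variation of 0.2, 48 of the 78 were higher, 2 lower and 28 did not pass the test. The 21 members that changed their call, Mrpl33 among them, all no longer passed. Over all 15470 tested genes 3714 were higher and 5243 lower with this setting. TMM scaling, limma-voom and the exact deviance changed no call of the 78 genes, and DESeq2 changed that of Mrps33. The large-subunit share differed by 2.07 percentage points without Mrps6 and by 2.23 without Mrpl12, and 1 gene was lower among members without exonic overlap, alternatives chosen after seeing the data.

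Leaving out each library in turn gave 65 to 69 genes higher, 3 lower, a median of 0.71 to 0.77 and a difference of large minus small subunit of 0.08 to 0.16. Replicate numbers did not pair the libraries: no label gives a pairing, and the deviations of replicate 1 from 2 in the groups had a correlation of -0.0053 over 15470 genes. With a replicate block 68 genes were higher and 3 lower with a median of 0.73, and no call of the 78 genes changed. Over all 15470 tested genes 5743 were higher and 6929 lower with this block.

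With hepatocyte-marker scaling the log2 fold change turned in all members above 0 with median of ratios. Those named for their size, level or role were then at Mrpl12 -0.23, Mrpl28 -0.38, Mrpl50 -0.46, Mrps10 -0.51, Mrpl15 -0.53, Mrpl38 -0.55, Mrpl18 -0.56, Mrpl9 -0.60, Mrps35 -0.63, Mrpl27 -0.63, Mrps23 -1.50, Mrps15 -1.55, Mrpl54 -1.60, Mrps26 -1.63, Mrpl19 -1.67, Mrpl23 -1.68, Mrpl3 -1.71, Mrpl24 -1.44, Mrpl20 -0.94, Mrps7 -0.72, Mrpl36 -1.43, Mrps18a -1.03, Mrps18b -1.15, Mrps18c -1.31, Mrps30 -1.07 and Mrpl58 -1.09. Other listed genes that turned were Ptcd3 -0.70, Gadd45gip1 -0.93, Chchd1 -0.94, Aurkaip1 -1.02, Gfm1 -0.54, Taco1 -0.55, Mtif3 -0.63, Mtrf1 -0.64, Gatb -0.29, Nars2 -0.50, Fars2 -0.65, Nsun4 -0.37, Mtg1 -0.39, Mterf4 -0.59, Ddx28 -0.63, Clpp -0.73, Lrpprc -0.18, Prorp -0.55, Tfam -0.60, Ppargc1b -1.45, Gabpa -1.01, Esrra -1.32, Yy1 -1.62, COX1 -0.38, Phb2 -0.36, Phb -0.66, Cox20 -0.73, Bcs1l -0.78, Lonp1 -0.87, Sars2 -0.98 and Ndufb5 -0.30. With total counts Mrps23 -0.25, Mrps15 -0.30, Mrpl54 -0.35, Mrps26 -0.38, Mrpl19 -0.42, Mrpl3 -0.46, Mrpl24 -0.19, Mrps18c -0.065 and Mrpl23 -0.43 turned. So did Mrpl36 -0.19, Mrpl43 -0.027, Mrpl4 -0.063, Mrpl52 -0.060, Mrps21 -0.092, Mrps25 -0.15, Mrps16 -0.088 and Mrps33 -0.019. Of the regulators, Ppargc1b -0.21, Esrra -0.068 and Yy1 -0.37 turned with total counts. With upper quartile scaling the log2 fold changes of Hcfc1 and Dap3 were 0.092 and 0.082. Mrpl36 and Mrpl23, with the fewest counts, had the widest errors.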
